A study of Mus musculus with 3 samples.

Results

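Club cells are the non-ciliated secretory cells of the conducting airway, and here they were studied as nuclei. A nucleus was counted as a club cell nucleus when it held at least 6 UMIs (counted RNA molecules) of Cyp2f2, these made up at least 0.25% of its UMIs, and no more than 2 of 6 genes of ciliated cells (Dnah12, Hydin, Spag17, Cfap299, Cfap43, Foxj1) had a UMI. This rule found 105 of 6849 nuclei in replicate 1 and 771 of 9806 nuclei in replicate 2, together 876 of 16655 nuclei. The whole data set holds 28589 barcodes in 3 droplet libraries (10x Chromium, 3′ v3 chemistry) of lung from wild type C57Bl/6J mice, made to compare isolated nuclei with whole cells. The 2 nucleus libraries came from snap-frozen lung of adult mice, and the 1 cell library, with 11934 cells, came from fresh lung digested with enzymes. No group had been treated or carried an altered allele. No label ties a library to its own animal, but sex-linked genes, given below, point to female nuclei in replicate 1 and male nuclei in replicate 2. With a library term in the fit, p-values here measure only how far differences between groups of nuclei vary between the libraries. That spread may be technical.

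Club cells secrete uteroglobin (Scgb1a1) and other small proteins into the lining fluid of the airway. They are also rich in enzymes that oxidise and conjugate inhaled chemicals, among them the cytochrome P450 Cyp2f2, which activates naphthalene in mice. They renew themselves and give rise to ciliated cells, and Notch signalling is known to hold airway cells in the secretory fate.

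Club nuclei were 1.53% of nuclei in replicate 1 (95% exact binomial interval 1.26 to 1.85%) and 7.86% in replicate 2 (7.34 to 8.41%), a mean of 4.70% ± 4.48 (SD, n = 2). The share was 5.13-fold larger in replicate 2, and the intervals, which cover counting error only, did not overlap. Among barcodes with at least 2500 UMIs the shares were 1.57% and 13.2%, an 8.39-fold difference, and with no ciliated gene allowed they were 0.701% and 3.02%, a 4.31-fold difference. No test between single libraries is possible. The ciliated-like nuclei described further on, also of the airway, numbered 17 and 143. The ciliated limit left out a further 7 and 47 nuclei that met the Cyp2f2 rule. Of the members, 48 and 296 held no ciliated gene, 36 and 322 held 1, and 21 and 153 held 2.

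A rule that asks for at least 6 Cyp2f2 UMIs favours deep nuclei, so depth is only described here. Members were deeper than the average nucleus. Their median was 4896 UMIs in replicate 1 and 3434 in replicate 2, against 4152 and 2521 over all nuclei, and they held a median of 2264 and 1957 genes, against 2006 and 1540. The deposited nuclei stop at 2499 and 2999 genes, and 33.3% of the members of replicate 1 lay within 100 genes of that limit, against 10.4% of all its nuclei. In replicate 2 these shares were 1.17% and 0.591%. How many club nuclei the limit removed was not tested. Between the nucleus libraries 21 barcodes were shared, none of them among the members of both, and 4 members had a barcode also found in the cells.

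Cyp2f2 itself, which chose the members and is therefore only described, had a median of 18 UMIs per member in replicate 1 and 14 in replicate 2, with highest values of 35 and 41. These medians were 0.375% and 0.401% of a member's UMIs. Outside the members, 72.5% and 69.1% of nuclei held at least 1 UMI of it. Just inside the threshold, the 8 and 86 members with 6 to 8 Cyp2f2 UMIs held 879 and 1697 CPM (UMIs scaled to a common library total, here with no other scaling) of Bmpr1b. Just outside it, the 1008 and 922 nuclei with 3 to 5 Cyp2f2 UMIs held 53.6 and 264 CPM. The 54 and 122 nuclei that had 6 or more Cyp2f2 UMIs but less than 0.25% held 1238 and 1497 CPM of Bmpr1b, below the members' 2051 and 2036.

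Some nuclei outside the rule also carried the genes that accompany it. Of 5 genes chosen after their values were seen (Bmpr1b, Itprid1, Ppp2r2b, Kcnk2 and Gabrp), at least 3 had a UMI in 88.6% and 95.3% of members, and in 77 (1.14%) and 368 (4.07%) of the non-members. These 77 and 368 nuclei had a median of 4 and 5 Cyp2f2 UMIs, just under the threshold, and 9 and 81 of them held more than 2 ciliated genes.

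Whole-class levels were compared by summing the counts of each class in each library. The comparison classes were AT2-like (270 and 793 nuclei), AT1-like (139 and 273), ciliated-like (17 and 143) and endothelial (576 and 577) nuclei, each chosen from 6 marker genes. AT2 and AT1 cells are the surfactant-producing and the flat gas-exchange cells of the alveolus, and endothelium lines the vessels. The ciliated-like class of replicate 1 is small, so a value of 0 there says little. In bulk sums of this kind, fewer expressing nuclei and less RNA per nucleus cannot be told apart. Levels below are CPM after TMM scaling, given for replicate 1 and then replicate 2.

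The label was set beside 16 club cell markers. Gabrp and Scgb3a2 were given as markers together with the rule for these nuclei. The list was chosen with earlier results of these data known, so it is no independent check. Cyp2f2 chose the nuclei, Upk3a had no UMI in any member, Chad had too few counts for a test, and 13 were tested. Of these, 8 were higher in club nuclei than in each of the 4 classes at an edgeR adjusted p under 0.05: Gabrp, Aldh1a1, Aox3, Cbr2, Cckar, Cldn10, Hp and Pon1. Over all 11982 genes tested, 2.14% were higher against all 4. The tight junction gene Cldn10 stood at 88.7 and 105 CPM in club nuclei and at 8.96 to 18.2 CPM in the 4 other classes. Cckar, a receptor for cholecystokinin, stood at 135 and 132 CPM, against 0 to 29.4 CPM elsewhere. Both genes separated the club nuclei from all other sums without overlap.

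The secretoglobins that define club cells in tissue did not mark these nuclei. Scgb1a1 (chr19:9083636-9087958, mm10) stood at 16395 and 18419 CPM in club nuclei and at 17833 and 18988 CPM in endothelial nuclei, which should not express it. Its log2 fold of club over endothelial nuclei was -0.08 (SE 0.33, edgeR adjusted p = 0.906). After each barcode was thinned to 1000 UMIs, Scgb1a1 had a UMI in 100% of club nuclei and in 100% of endothelial nuclei of both libraries. Scgb3a2 stood at 397 and 476 CPM in club nuclei and at 417 and 475 CPM in endothelial nuclei (log2 fold -0.03, SE 0.24, adjusted p = 0.964). Thinned, it had a UMI in 29.5% and 38.8% of club nuclei and in 31.9% and 38.5% of endothelial nuclei. With levels and shares so near those of endothelial nuclei, expression in club nuclei cannot be told apart from background. Free RNA itself was not measured. edgeR called neither gene in any of the 4 comparisons. With DESeq2, Scgb1a1 was higher than in ciliated-like nuclei (log2 0.50, adjusted p = 0.00633).

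Gabrp (chr11:33550781-33578959) did mark them. This gene for a GABA-A receptor subunit found in airway epithelium stood at 379 and 409 CPM in club nuclei. In the other classes it reached from 0 CPM (ciliated-like, replicate 1) to 32.6 CPM (AT2-like, replicate 2). Club nuclei were 19.5-fold above AT2-like nuclei (log2 4.28, SE 0.35, edgeR adjusted p = 3.18e-07) and 28.3-fold above endothelial nuclei. Thinned to 1000 UMIs, 26.7% and 32.6% of club nuclei held a Gabrp UMI, against 0.868% and 1.41% of endothelial nuclei.

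**Figure D1:**
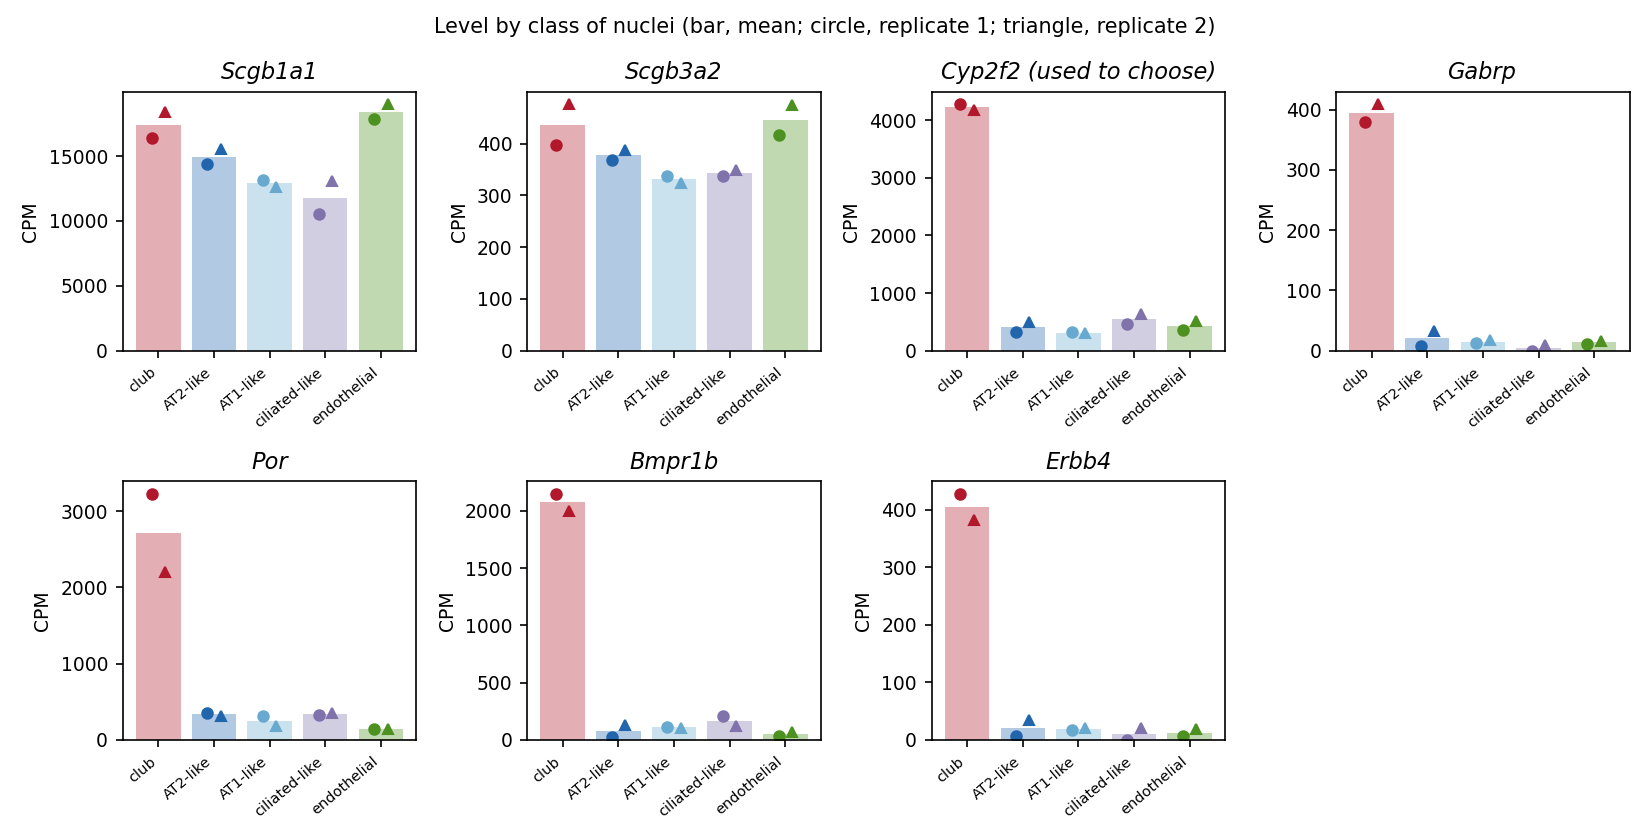
Level in CPM (linear axes from 0) of 7 genes in the 5 classes of nuclei. Bars are means of the 2 libraries, circles replicate 1 and triangles replicate 2. Scgb1a1 and Scgb3a2 are at similar levels in club and endothelial nuclei, while Gabrp, Por, Bmpr1b and Erbb4 stand out in club nuclei of both libraries; Cyp2f2 chose the nuclei and is shown for scale.

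The number of genes that differed was smallest against AT2-like and largest against endothelial nuclei. Against AT2-like nuclei 745 genes were higher in club nuclei and 913 lower (6.22% and 7.62% of 11982). Against AT1-like nuclei 1000 were higher (8.35%) and 1137 lower (9.49%). Against ciliated-like nuclei 1031 were higher (8.6%) and 1400 lower (11.7%), and against endothelial nuclei 1645 (13.7%) and 1511 (12.6%). In either direction these calls were 13.8, 17.8, 20.3 and 26.3% of the genes tested. In all 4 comparisons 256 genes were higher and 37 lower (0.309%). The 4 comparisons share the club sums. Without the library term the AT2-like comparison gave 956 calls in place of 1658, and 148 genes were higher in all 4.

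Of the 256 genes, the 25 with the largest smallest fold over the 4 comparisons and at least 50 CPM in both libraries included receptors, channels and enzymes. Bmpr1b (chr3:141837136-142169425), a type I receptor for bone morphogenetic proteins, stood at 2152 and 1998 CPM in club nuclei. It ranged from 29.6 to 207 CPM in the 4 other classes, so the groups did not overlap. The fold over AT2-like nuclei was 27.4 (log2 4.78, SE 0.49, adjusted p = 2.18e-06). A thinned club nucleus held a Bmpr1b UMI in 67.6% and 77% of cases, and an endothelial nucleus in 2.26% and 8.61%.

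Erbb4, a receptor tyrosine kinase for neuregulins, stood at 428 and 381 CPM, against 0 to 34.1 CPM in the 4 classes (20.8-fold over AT2-like nuclei, SE 0.42 on the log2 scale, adjusted p = 1.25e-06). Lpar3, a receptor for lysophosphatidic acid, stood at 570 and 690 CPM, against 18.2 to 83.8 CPM elsewhere. Vtcn1, a cell surface protein of the B7 family, stood at 246 and 208 CPM, against 0.896 to 25.9 CPM. In none of these 3 genes did a club value fall among the values of another class.

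Among channels, Kcnk2, a potassium channel of the two-pore-domain family, stood at 1496 and 1199 CPM in club nuclei and at no more than 112 CPM in any other sum. Its fold over AT2-like nuclei was 17.7 (log2 4.15, SE 0.36, adjusted p = 5.32e-07). Itprid1 stood at 1354 and 1605 CPM, against 15 to 117 CPM elsewhere. Ppp2r2b, a regulatory subunit of protein phosphatase 2A, stood at 692 and 1008 CPM, against 8.98 to 80 CPM. In AT2-like nuclei Ppp2r2b stood at 11.7 and 80 CPM and in AT1-like nuclei at 66.9 and 68.5 CPM, all below the club values.

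Also among the 25 were Lypd6, Slco1a5, Crb1, Nwd2, Pkhd1, Atp2b2, Wdr72, Rasgrf1, Acsm1, Cyp4f15, Tnfrsf21, Parm1, Tent5c, Sidt1 and Cnksr2, beside Gabrp. Slco1a5, an organic anion transporter, stood at 137 and 63.8 CPM, and the apical polarity gene Crb1 at 208 and 173 CPM. Cyp4f15, a cytochrome P450 of fatty acid oxidation, stood at 62.1 and 87 CPM. Tnfrsf21, a death receptor, differed most between the libraries among those named here, with 607 CPM in replicate 1 and 207 CPM in replicate 2. Of the 25, Parm1 alone lost a call under an alternative setting, in the ciliated-like comparison with DESeq2 (log2 2.10, adjusted p = 0.19).

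**Figure D2:**
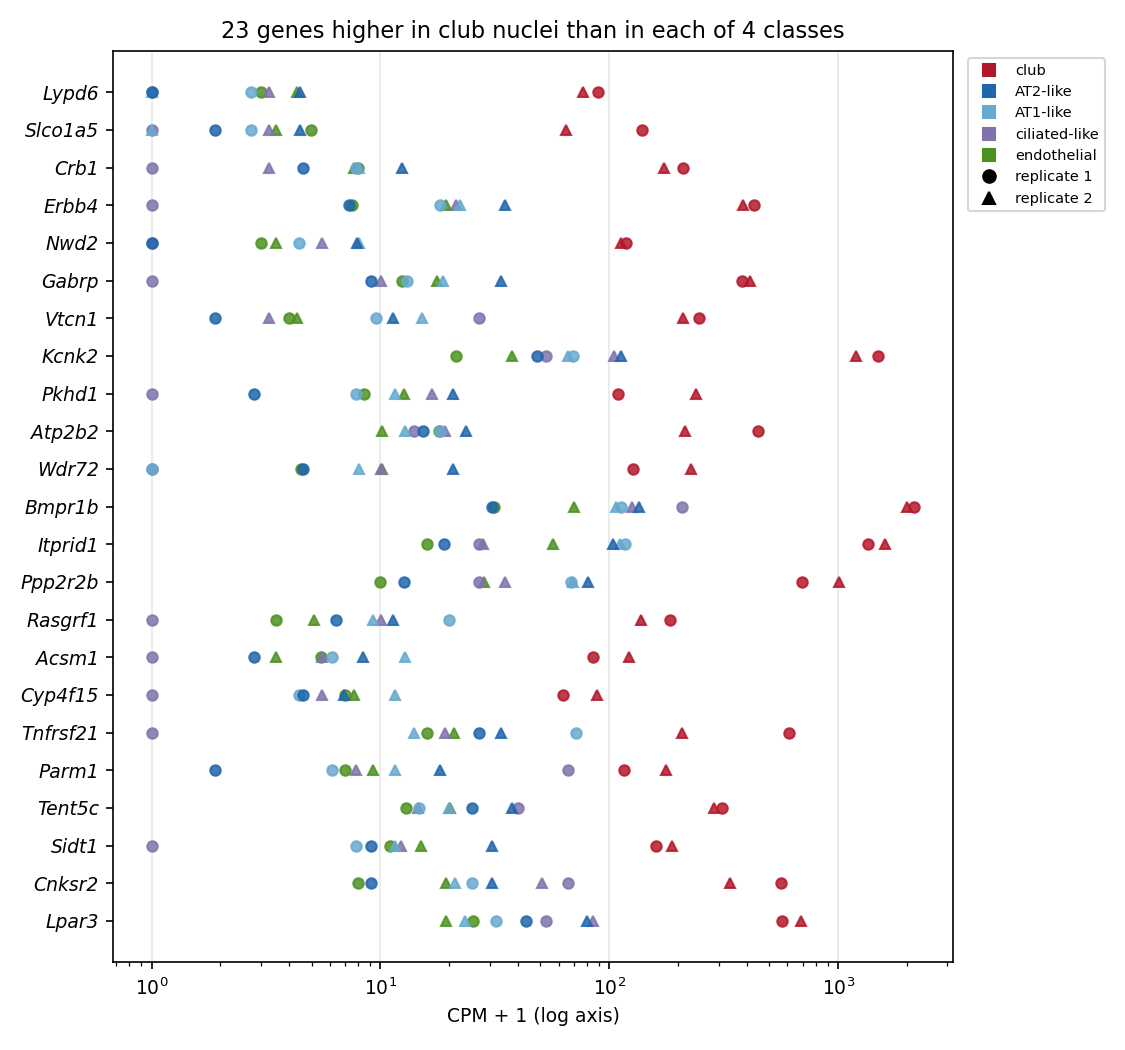
Level of 23 of the 25 genes in every class and library, as CPM + 1 on a log axis. Circles are replicate 1, triangles replicate 2 and colours the classes. The club values of both libraries lie to the right of every other value in each row.

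Many enzymes of xenobiotic metabolism were higher in club nuclei. Of 36 genes tested, 19 were higher than in AT2-like nuclei and 1 lower, 18 and 4 against AT1-like, 16 and 2 against ciliated-like, and 22 and 3 against endothelial nuclei. Over all genes tested, 6.22, 8.35, 8.6 and 13.7% were higher in these comparisons, and 7.62, 9.49, 11.7 and 12.6% lower. The median log2 folds of the list were 1.12, 1.39, 1.12 and 1.68, beside -0.02, -0.01, 0.11 and -0.03 over all genes tested. The 13 genes higher in all 4 included Por, Gsta3, Mgst1, Aldh1a1, Aldh1a7, Aox1, Aox3, Cbr2, Ces1d, Ces1f, Ces1g and Pon1. Of these, Aldh1a1 with Aldh1a7, Aox1 with Aox3 and the Ces1 genes are close paralogs, so how the counting divided reads among them is uncertain. Some of these calls depended on a setting. Aldh1a1 against ciliated-like nuclei was lost without the 17 nuclei of replicate 1 (adjusted p = 0.124), without the library term (0.127) and with the stricter Cyp2f2 rule (0.0505), and against AT1-like nuclei without the library term (0.102). Ces1g against ciliated-like nuclei was lost without those 17 nuclei (adjusted p = 0.107), with DESeq2 (0.108), with no ciliated gene allowed in the members (0.142) and with low Cyp2f2 in the comparison nuclei (0.118). Mgst1 against AT2-like nuclei was lost with the stricter Cyp2f2 rule (adjusted p = 0.103).

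Por (chr5:135670033-135735326) encodes the reductase that passes electrons to every microsomal cytochrome P450. It stood at 3232 and 2197 CPM in club nuclei and at 145 to 356 CPM in the 4 other classes. Its fold was 7.92 over AT2-like nuclei (log2 2.99, SE 0.30, edgeR adjusted p = 1.71e-06) and 18.2 over endothelial nuclei. Thinned to 1000 UMIs, 82.9% and 83.5% of club nuclei held a Por UMI, against 9.38% and 14.8% of endothelial nuclei.

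Fmo2, a flavin-containing monooxygenase, stood at 980 and 458 CPM in club nuclei and at 1202 and 156 CPM in AT1-like nuclei (adjusted p = 0.55). Its relative Fmo1 was lower than in endothelial nuclei, at 75.4 and 35.2 CPM against 729 and 428 CPM (log2 -3.48, adjusted p = 1.38e-07).

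Aldehyde and aldehyde-type substrates are oxidised by the Aldh and Aox enzymes. Aox3 stood at 2070 and 1452 CPM in club nuclei. AT2-like nuclei came closest, at 921 and 439 CPM (2.66-fold lower, adjusted p = 0.00525), and the other 3 classes held 25.9 to 79.6 CPM. Aldh1a1 stood at 1704 and 1086 CPM, above the 261 to 881 CPM of the 4 classes. Aldh1a7 stood at 494 and 327 CPM, against 0 to 90.9 CPM.

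Some conjugating, reducing and hydrolysing enzymes were among the 13, while of the Gst genes tested Gsta3 alone was. The glutathione transferase Gsta3 stood at 510 and 295 CPM, against 25.9 to 230 CPM. The carboxylesterase Ces1d stood at 1239 and 546 CPM, against 76.8 to 281 CPM. Carbonyl reductase Cbr2 stood at 1784 and 2892 CPM, against 428 to 989 CPM, and paraoxonase Pon1 at 153 and 104 CPM, against 0 to 26.9 CPM. In these 4 genes too the lowest club value lay above the highest value of any other class.

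None of the P450 genes tested in this list was among the 13, unlike Cyp4f15, which is not in the list. Cyp2s1 was 13-fold higher in ciliated-like than in club nuclei (635 and 826 CPM against 53.2 and 62.4 CPM, log2 -3.70, adjusted p = 6.99e-08). Cyp2b10 was highest in AT1-like nuclei, at 928 and 565 CPM against 281 and 196 CPM in club nuclei (adjusted p = 0.00436, or 0.0645 without the library term). Cyp4b1, listed among the club markers, was higher than in AT2-like nuclei (545 and 214 CPM against 71.7 and 61.8 CPM, adjusted p = 4.29e-05). It missed the threshold against endothelial nuclei, which held 251 and 231 CPM (log2 0.52, SE 0.30, adjusted p = 0.224). Cyp2a5 stood at 37.7 and 16.3 CPM in club nuclei and passed no comparison.

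**Figure D3:**
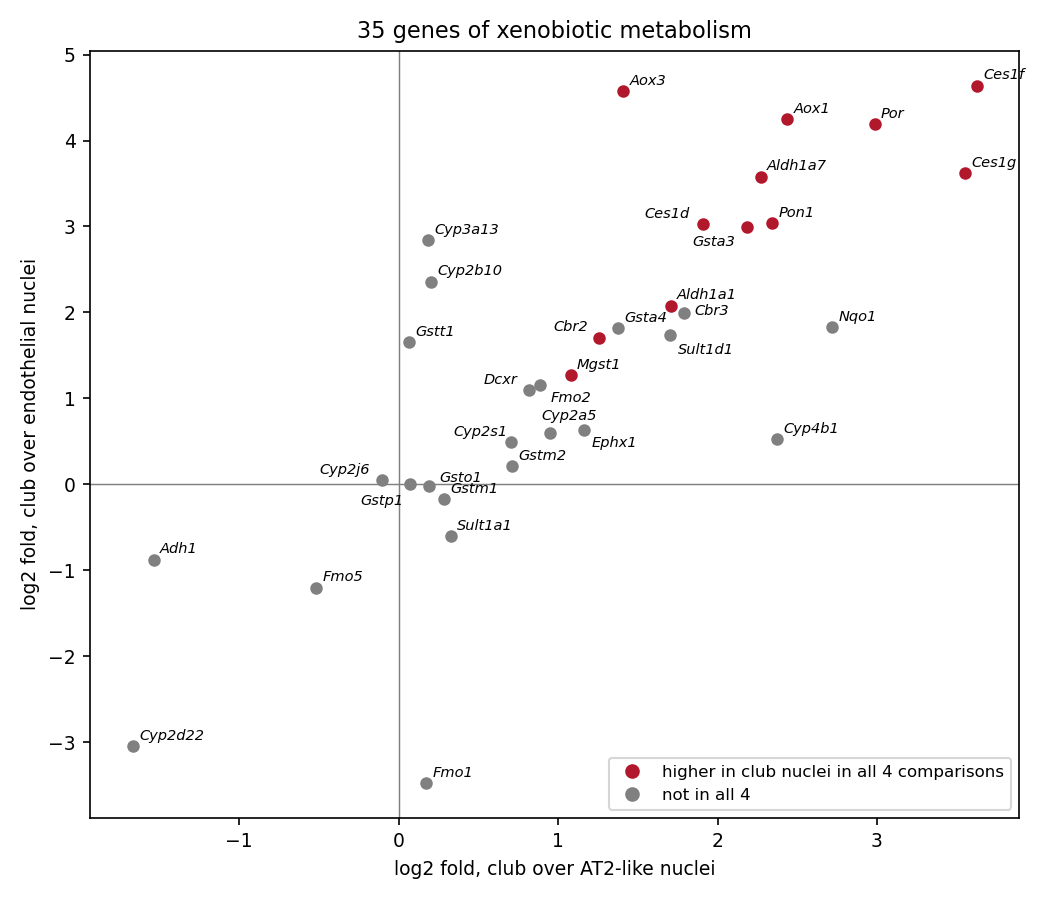
log2 fold of club over AT2-like nuclei (horizontal) and over endothelial nuclei (vertical) for 35 of the 36 tested genes of xenobiotic metabolism, from the edgeR fit over the 2 libraries. Red points are genes higher in club nuclei in all 4 comparisons. Ces1f, Ces1g and Por lie at the upper right, and Fmo1 and Cyp2d22 are lower than in endothelium.

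Secreted and mucosal proteins contrasted with the enzymes. Of 23 genes tested, 3 were higher and 3 lower than in AT2-like nuclei, 7 and 1 against AT1-like, while 4 were higher against ciliated-like and 7 against endothelial nuclei. The shares over all genes tested were 6.22, 8.35, 8.6 and 13.7% higher, and 7.62, 9.49, 11.7 and 12.6% lower. The median log2 folds of the list were 0.16, 0.51, 0.48 and 0.09. Only Muc5b and Hp were higher in all 4. Muc5b, a gel-forming mucin of the small airway, stood at 57.6 and 35.9 CPM in club nuclei and at 0 to 8.57 CPM elsewhere (8.97-fold over AT2-like nuclei, log2 3.17, SE 0.47, adjusted p = 0.000138). Against ciliated-like nuclei, where it had 3 UMIs in all, Muc5b was no longer called without replicate 1 of that class (adjusted p = 0.0597). Muc5b also lost that call with no ciliated gene allowed in the members (adjusted p = 0.0625). The haptoglobin gene Hp stood at 239 and 332 CPM, against 77.8 to 181 CPM. Without the library term its calls were lost in all comparisons but that with AT1-like nuclei (adjusted p = 0.0525 to 0.104). Wfdc2, Scgb3a1 and Bpifa1, all secreted by airway epithelium, passed no comparison, and Wfdc2 stood at 268 and 327 CPM in club nuclei against 283 and 275 CPM in endothelial nuclei.

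Ion and fluid transport genes move salt and water across the airway lining. Of 18 genes tested, 6 were higher and 2 lower than in AT2-like nuclei, 10 and 2 against AT1-like, while 12 were higher against ciliated-like and 13 against endothelial nuclei. Of all genes tested, 6.22, 8.35, 8.6 and 13.7% were higher in these comparisons, and 7.62, 9.49, 11.7 and 12.6% lower. Gabrp, Scnn1b and Slc4a4 were higher in all 4, and the median log2 folds of the list were 0.69, 1.27, 2.59 and 2.30. Scnn1b, a subunit of the epithelial sodium channel, stood at 541 and 391 CPM in club nuclei, at 168 and 241 CPM in AT1-like nuclei and at 0 to 39.5 CPM in the rest. Its call against AT1-like nuclei (adjusted p = 0.00997) was lost with DESeq2 (adjusted p = 0.0672) and without the library term (0.0799). The third subunit of that channel, Scnn1g, stood at 197 and 126 CPM in club nuclei and at 161 and 162 CPM in AT1-like nuclei (log2 -0.06, SE 0.26, adjusted p = 0.929).

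The bicarbonate transporter Slc4a4 stood at 359 and 429 CPM, against 36.4 to 156 CPM in the other classes. A second transporter of the family, Slc4a5, was among the genes most different from ciliated-like nuclei, with 853 and 544 CPM against 0 and 11.3 CPM. Kcnq1, an epithelial potassium channel, stood at 375 and 307 CPM in club nuclei and at 13 to 22.3 CPM in AT1-like and ciliated-like nuclei. The chloride channel Cftr stood at 113 and 75.1 CPM in club nuclei and at 167 and 119 CPM in AT2-like nuclei (log2 -0.60, SE 0.26, adjusted p = 0.16). Atp6v1c2, a subunit of the proton pump, stood at 483 and 429 CPM in club nuclei and at 505 and 394 CPM in AT2-like nuclei (log2 0.03, SE 0.25, adjusted p = 0.981). Both classes lay above endothelium, where Atp6v1c2 stood at 24.9 and 31.5 CPM.

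Growth factor receptors and ligands gave 9 genes higher and 4 lower of 30 tested against AT2-like nuclei, 9 and 7 against AT1-like, 6 and 3 against ciliated-like, and 13 and 5 against endothelial nuclei. Over all genes tested, 6.22, 8.35, 8.6 and 13.7% were higher in these comparisons, and 7.62, 9.49, 11.7 and 12.6% lower. Fgfr1, Bmpr1b, Bmp3 and Erbb4 were higher in all 4. Fgfr1 lost its call against AT2-like nuclei with DESeq2 (adjusted p = 0.0821) and without the library term (0.215). The same call was lost with the stricter Cyp2f2 rule (0.106) and with no ciliated gene allowed in the members (0.0607). Against AT1-like nuclei Fgfr1 lost its call without the library term (0.163) and with the stricter rule (0.0666). Bmp3, a ligand of the bone morphogenetic protein family, stood at 111 and 68.2 CPM in club nuclei. Its call against AT2-like nuclei (adjusted p = 0.0384) was lost with DESeq2 (adjusted p = 0.233) and without the library term (adjusted p = 0.166). The stricter Cyp2f2 rule also lost it (adjusted p = 0.199). Erbb4 and Egfr, receptors of 1 family, went in opposite directions. Egfr stood at 19.9 and 13.1 CPM in club nuclei, at 103 and 84 CPM in AT2-like nuclei and at 389 and 422 CPM in AT1-like nuclei (27.9-fold lower than AT1-like, log2 -4.80, SE 0.36, adjusted p = 1.34e-07). Against endothelial nuclei, with 13 and 26.5 CPM, Egfr missed the threshold (adjusted p = 0.548).

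Tgfbr3, the betaglycan co-receptor, was the 1 member of that list lower in all 4, at 33.2 and 31.2 CPM in club nuclei against 69.7 to 470 CPM elsewhere. Its call against AT2-like nuclei was lost without the library term (adjusted p = 0.0744) and with no ciliated gene allowed in the members (0.0731). Il13ra1, a receptor chain for interleukin 13, stood at 97.5 and 116 CPM and was higher than in AT2-like nuclei (4.01-fold, SE 0.26 on the log2 scale, adjusted p = 3.41e-05), AT1-like nuclei and endothelium. It missed the threshold against ciliated-like nuclei (log2 0.70, adjusted p = 0.134). Il33, an alarmin cytokine of AT2 cells in the mouse lung, stood at 39.9 and 18.1 CPM in club nuclei and at 565 and 305 CPM in AT2-like nuclei (log2 -4.01, adjusted p = 2.77e-07).

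Among 33 epithelial transcription factors tested, 8 were higher and 5 lower than in AT2-like nuclei, 12 and 2 against AT1-like, 10 and 1 against ciliated-like, and 17 and 4 against endothelial nuclei. The shares over all genes tested were 6.22, 8.35, 8.6 and 13.7% higher, and 7.62, 9.49, 11.7 and 12.6% lower. Hes1 and Pparg were higher in all 4. Pparg, a nuclear receptor of lipid metabolism, stood at 237 and 258 CPM against 13 to 97.4 CPM elsewhere (3.66-fold over AT2-like nuclei, log2 1.87, SE 0.31, adjusted p = 0.000392). The retinoic acid receptor Rarb stood at 809 and 992 CPM in club nuclei and at 324 and 634 CPM in ciliated-like nuclei (adjusted p = 0.0614, or 0.00394 with no filter on low counts), against 18 to 106 CPM in the other 3 classes. The 2 airway classes thus held the higher Rarb levels.

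Ahr, the receptor that senses dioxin-like chemicals, stood at 186 and 165 CPM in club nuclei, higher than in AT2-like nuclei (26.9 and 53.4 CPM, adjusted p = 0.000144). Endothelial nuclei held 168 and 272 CPM of Ahr (club over endothelial log2 -0.30, SE 0.29, adjusted p = 0.519). The ETS factors Ehf and Elf5 did not pass against AT2-like nuclei, where Ehf stood at 69 and 109 CPM beside 129 and 132 CPM in club nuclei. Against AT1-like nuclei, with 6.86 and 2.36 CPM, Ehf passed (log2 4.92, adjusted p = 1.11e-06). Nkx2-1, the lung lineage factor, stood at 53.2 and 80.5 CPM in club nuclei and at 120 and 111 CPM in AT2-like nuclei (log2 -0.83, SE 0.34, adjusted p = 0.129). Nkx2-1 was above endothelium, which held 25.9 and 38.2 CPM (adjusted p = 0.0366). This call was lost with DESeq2 (adjusted p = 0.12), without the library term (0.136) and with the stricter Cyp2f2 rule (0.453). It was also lost with no ciliated gene allowed in the members (0.0789) and without members holding 3 markers of another class (0.115).

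Of 21 Notch pathway genes tested, 3 were higher than in AT2-like nuclei, 5 were higher and 1 lower against AT1-like, 2 and 3 against ciliated-like, and 4 and 7 against endothelial nuclei. Over all genes, 13.8, 17.8, 20.3 and 26.3% were called in these comparisons. The Notch genes higher in all 4 were a receptor and a target. Notch2 stood at 465 and 465 CPM in club nuclei, against 86.3 to 305 CPM elsewhere. It was 1.84-fold over AT2-like nuclei (SE 0.26 on the log2 scale, adjusted p = 0.0269). This call was lost without the library term (adjusted p = 0.113) and with no ciliated gene allowed in the members (0.0598). It was also lost without members holding 3 markers of another class (0.0703). The target Hes1 stood at 64.3 and 163 CPM, with 26 and 58.3 CPM in AT2-like nuclei (log2 1.42, SE 0.29, adjusted p = 0.00207). Hes1 differed between the libraries in each class, always with the lower value in replicate 1. All 4 of its calls were lost without the library term (adjusted p = 0.129 to 0.349) and with the stricter Cyp2f2 rule. Against AT1-like nuclei its call was also lost with DESeq2 (0.124) and with no ciliated gene allowed in the members (0.165). That call was lost too without members holding 3 markers of another class (0.0691) and with low Cyp2f2 in the comparison nuclei (0.0584). The call against endothelial nuclei was lost with no ciliated gene allowed (0.0739). Jag1, a ligand, stood at 86.4 and 114 CPM in club nuclei and at 90.7 and 240 CPM in ciliated-like nuclei (adjusted p = 0.0878, or 0.0256 without replicate 1 of that class).

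Against AT2-like nuclei the 8 leading higher genes not already named were Mgat3, Lnx1, Gna14, Slc16a12, Gfra1, Col4a6, Atp2c2 and Pcsk6. Col4a6, a chain of type IV collagen in epithelial basement membranes, stood at 840 and 652 CPM against 22.4 and 64.2 CPM (19.2-fold, log2 4.26, SE 0.39, adjusted p = 8.54e-07). Mgat3, a glycosyltransferase of N-glycans, stood at 621 and 472 CPM against 11.7 and 26.2 CPM. The 8 leading lower genes were Elfn1, Tmem163, Prmt8, Adam19, Snhg11, Slc24a4, Phf24 and Ror1. Tmem163 stood at 28.8 and 54 CPM in club nuclei and at 1705 and 1033 CPM in AT2-like nuclei (30.7-fold lower, adjusted p = 2.77e-07). In endothelial nuclei Tmem163 stood at 45.4 and 75.5 CPM, and the difference from club nuclei missed the threshold (adjusted p = 0.473).

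Of 15 surfactant and AT2 genes, 10 were lower in club than in AT2-like nuclei, beside 7.62% of all genes tested. Their median log2 fold in that comparison was -1.11. Against AT1-like, ciliated-like and endothelial nuclei 5, 5 and 5 were higher and 0 were lower. Over all genes tested, 8.35, 8.6 and 13.7% were higher in these 3 comparisons, and 9.49, 11.7 and 12.6% lower. Sftpb, which club cells are known to express, lay between. It stood at 1075 and 1026 CPM in club nuclei, at 2460 and 1744 CPM in AT2-like nuclei (adjusted p = 0.0387, or 0.131 without the library term) and at 117 to 399 CPM in the other 3 classes, all of them lower than club nuclei. Sftpc, which is particular to AT2 cells in textbook accounts, stood at 2192 and 2113 CPM in club nuclei and at 2715 and 3429 CPM in endothelium (log2 -0.50, SE 0.29, adjusted p = 0.232). With DESeq2 Sftpc was lower in club than in endothelial nuclei (adjusted p = 0.033).

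Against ciliated-like nuclei, where 11.7% of all genes were lower in club nuclei, all 15 ciliary genes outside the selection were (median log2 fold -4.91). Members had been chosen to hold few ciliated genes, and ciliated-like nuclei to hold most of the same genes. The choice itself thus set the classes apart in ciliary genes, and this result is no independent check of the label. Against endothelial nuclei 1 of the 15 ciliary genes was higher and 2 were lower (13.7% and 12.6% over all genes). Against AT1-like nuclei 1 was higher (8.35% over all genes). The 8 leading genes lower than in ciliated-like nuclei were T2, Slc14a2, Ccdc65, Nr1i2, Crocc2, Spock1, Fank1 and Ttc29. The 8 leading higher genes were Slc4a5, Col23a1, Scnn1b, Cftr, Bmp3, Homer2, Dapk2 and Samd4. T2 stood at 2.22 and 1.45 CPM in club nuclei and at 259 and 380 CPM in ciliated-like nuclei.

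Markers of other cell types were measured in the members. At least 3 of 6 AT2 markers had a UMI in 32.4% and 34.1% of members, against 34.4% and 34.6% of non-members. For AT1 markers these shares were 22.9% and 9.60% of members, against 23.0% and 17.8% of non-members. For endothelial markers they were 20% and 11.3% of members, against 51.9% and 31.7% of non-members. The summed AT2 markers stood at 752 and 1020 CPM in club nuclei, against 218 and 253 CPM in AT1-like, 91.9 and 220 CPM in ciliated-like and 234 and 376 CPM in endothelial nuclei. Endothelial markers stood at 636 and 464 CPM in club nuclei, against 212 to 330 CPM in the 3 other epithelial classes. Those classes, unlike the club nuclei, were chosen to lack such markers. With members that held 3 markers of another class left out, which kept 43 and 396 members, 214 genes were higher in all 4.

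No member held UMIs of 3 of the 6 markers of goblet, basal, neuroendocrine or tuft cells, which are rarer in the airway. Among non-members these shares were at most 0.0664% (neuroendocrine, replicate 2), so the absence says little about the members. Goblet markers summed to 61.3 and 46.9 CPM, against 0 to 14.9 CPM in the 4 other classes, nearly all of it Muc5b, and Muc5ac had no UMI in replicate 1. The 6 neuroendocrine markers were all at 0 in replicate 1 and summed to 5.17 CPM in replicate 2. Tuft markers summed to 71.8 and 146 CPM in club nuclei, to 159 and 139 CPM in AT2-like nuclei and to 23.5 and 49.4 CPM in endothelial nuclei. Basal markers summed to 92.9 and 4.43 CPM. Krt5, the defining gene of basal cells, had no UMI in members of either library. The basal factor Trp63 was called higher than in AT2-like and endothelial nuclei (adjusted p = 0.0224 and 0.000745), but it had 43 UMIs in 4 members of replicate 1, 42 of them in 3 nuclei, and 7 UMIs in 4 members of replicate 2. Both calls were lost with DESeq2 (adjusted p = 0.877 and 0.321). The call against AT2-like nuclei was also lost without the library term (0.104) and without members holding 3 markers of another class (0.107).

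The club nuclei of both libraries held closely similar levels of most genes. Of 4416 genes with at least 50 CPM in either, 95.5% lay within 2-fold after 5 CPM was added to each value. On that scale, which understates the fold of low genes, 9 genes were at least 4-fold higher in replicate 1 and 18 in replicate 2, given here with no test, since each side is 1 library. Of these 27, 24 also differed by 2-fold in the same direction in AT2-like nuclei, and 20 in endothelial nuclei. Most of these genes thus differed between the libraries in other classes too.

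Sex-linked genes were among them. Xist, which is transcribed from the inactive X chromosome of females, stood at 1255 and 17 CPM in club nuclei, and the Y-linked Uty at 0 and 357 CPM. Zbtb16, Fkbp5 and Per2, genes known to respond to glucocorticoids, were higher in replicate 1. Zbtb16 stood at 1018 and 128 CPM and Per2, which is also a clock gene, at 319 and 64.3 CPM. Catsperd (2.11 and 577 CPM) and Fam163a (0 and 304 CPM) were nearly confined to replicate 2, with like values in AT2-like nuclei. With 1 library on each side, sex and library cannot be told apart.

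**Figure D4:**
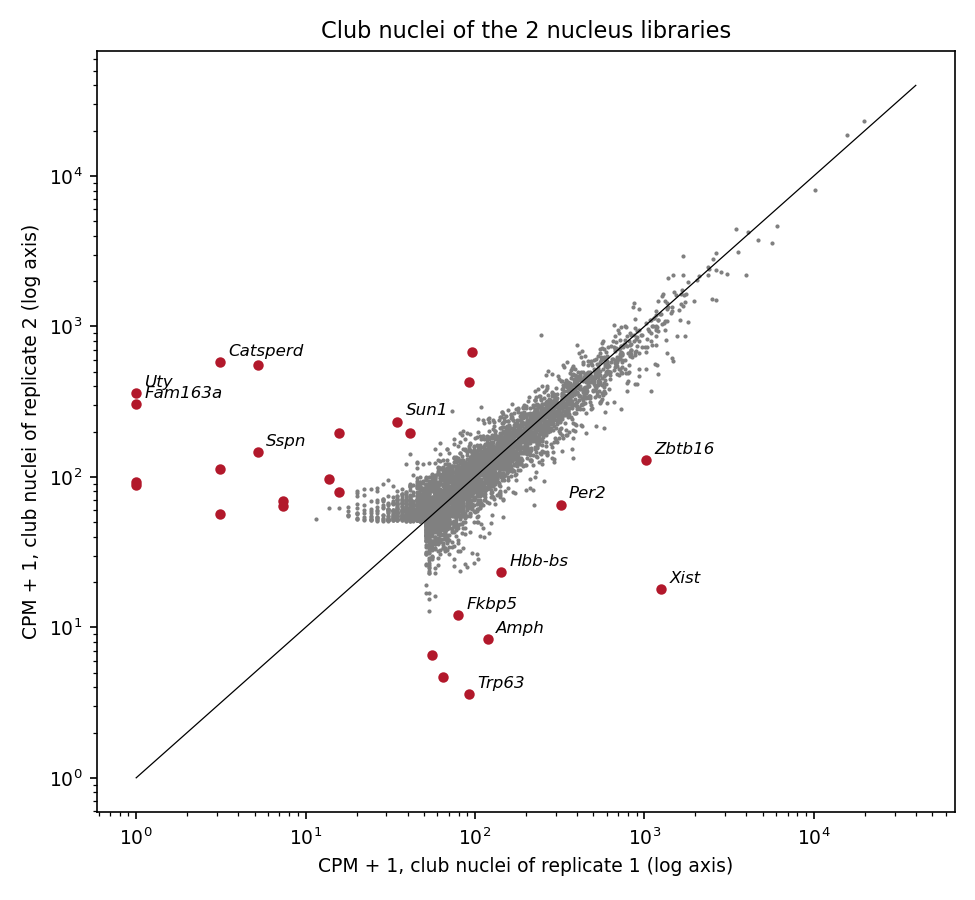
Level of 4416 genes in club nuclei of replicate 1 (horizontal) and replicate 2 (vertical), CPM + 1 on log axes, with the line of equality. Red points are the 27 genes that differ at least 4-fold with 5 CPM added to each value. Most genes lie along the line; Xist and Zbtb16 lie below it, and Uty, Fam163a and Catsperd above.

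Within the 876 club nuclei, clustering gave 5 groups, described here by their leading genes with no test. Cluster 1 (92 nuclei) held 83.8% of the members of replicate 1 and 0.519% of those of replicate 2, and Xist and Zbtb16 led it, so cluster and library cannot be told apart. Clusters 2, 4 and 5 were nearly all of replicate 2, with 350, 218 and 139 of its 771 members. Cyp2f2 ranged only from 3564 to 4382 CPM over the 5 clusters, and Gabrp from 346 to 507 CPM.

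Cluster 4 (223 nuclei) was led by Hs6st3, Pde4b, Muc5b, Wdr72, Il13ra1 and Erbb4. Hs6st3, a heparan sulfate sulfotransferase, stood at 1278 CPM in cluster 4 and at 72.1 CPM in cluster 2. Muc5b stood at 113 CPM in cluster 4 and at 8.72 CPM in cluster 2, so the mucin was unevenly spread over the club nuclei. Erbb4 stood at 894 CPM against 81.6 CPM, and Il13ra1 at 274 CPM against 39.6 CPM.

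Cluster 2 (355 nuclei) was led by Cacna1c, Kctd8 and Gclc. Gclc, the catalytic subunit of the enzyme that starts glutathione synthesis, stood at 920 CPM in cluster 2 and at 415 CPM in cluster 4. Kctd8 stood at 1290 CPM against 342 CPM, and Ces1f at 134 CPM against 52.6 CPM. In cluster 1, nearly all of replicate 1, Gclc stood at 418 CPM, Ces1f at 43.9 CPM and Muc5b at 39.3 CPM. That Muc5b level was below cluster 4 but above the 8.72 to 16.3 CPM of clusters 2, 3 and 5. Cluster 1 and library cannot be told apart.

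Cluster 3 (66 nuclei) was led by the leukocyte genes Dock2, Skap1 and Arhgap15. Its lymphocyte markers summed to 960 CPM, against 46.2 to 167 CPM in the other clusters, and its endothelial markers to 1343 CPM, against 370 to 480 CPM. At least 3 lymphocyte markers had a UMI in 13 of its 66 nuclei. Whether it holds droplets with more than 1 nucleus was not tested. Cluster 5 (140 nuclei) was led by Wdr17 and Gpm6a, which had a UMI in only 22.9% and 14.3% of its nuclei. Wdr17 had a UMI in 28.7% of the nuclei of cluster 2 and in 25.8% of those of cluster 3.

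**Figure D5:**
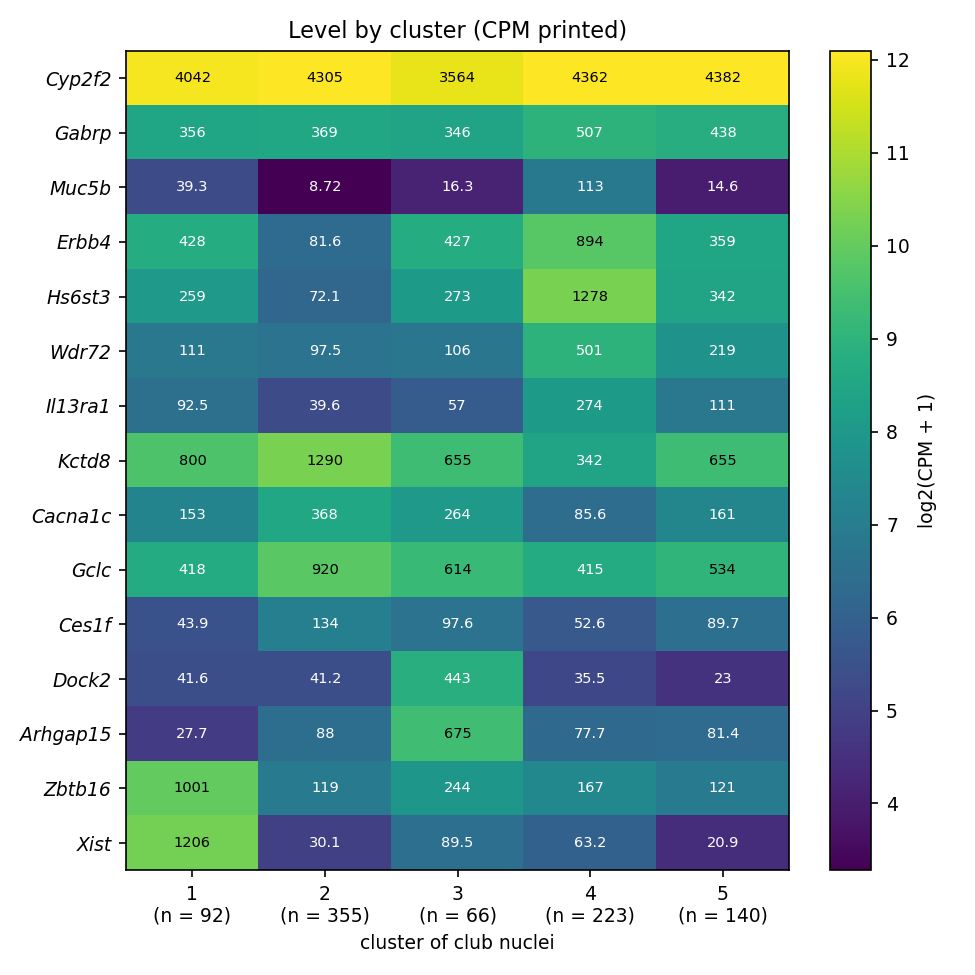
Level of 15 genes in the 5 clusters of club nuclei. Colour is log2(CPM + 1) and the CPM is printed in each field. Cyp2f2, which chose the nuclei, and Gabrp are similar throughout. Muc5b, Erbb4 and Hs6st3 are highest in cluster 4, Kctd8 and Gclc in cluster 2, Dock2 in cluster 3 and Xist in cluster 1.

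The same rule found 0 of 11934 cells in the cell library, which allows a share of up to 0.0251%. Only 464 cells (3.89%) held a Cyp2f2 UMI at all, and the highest value was 13. Of the 21 cells with at least 6 Cyp2f2 UMIs, 19 held more than 2 ciliated genes. With both Cyp2f2 thresholds lowered in proportion, to 3 UMIs, 2 cells met the rule. With 1 cell library and no member, no test between cells and nuclei was possible.

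A search by the secretory genes instead, chosen after the data were seen, found 32 cells with at least 5% of their UMIs from Scgb1a1 and few ciliated genes. In their summed 103184 UMIs, Scgb3a2 stood at 4962 CPM (95% exact Poisson interval 4541 to 5411, from 512 UMIs), against 70.2 CPM over all cells. Their Cyp2f2 stood at 339 CPM (236 to 472, from 35 UMIs). They held 3 UMIs of Gabrp, 0 of Bmpr1b and 8 of Por. High Scgb3a2 thus accompanied Scgb1a1 in these cells. Levels of Cyp2f2, Gabrp, Bmpr1b and Por over all cells were not measured, so whether they also accompanied Scgb1a1 was not tested. In the nuclei Gabrp, Bmpr1b and Por accompanied Cyp2f2. Preparation, fresh or frozen tissue and library differ together here and cannot be told apart.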

How the data were processed

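The authors deposited tables of UMI counts per gene and barcode, taken here as raw counts. Alignment used STAR 2.5.3a and the genome build was mm10, per the submitters' processing notes. Which program counted the reads, with which annotation and whether introns counted, is not given in the sources used here. Counts were summed per class and library (65318 to 2705767 UMIs a sum) and tested with edgeR 4.0.16 (quasi-likelihood, TMM, filterByExpr, class plus library) in R 4.3.3. P-values were adjusted by the Benjamini-Hochberg method over all genes tested, and 25 genes used to choose classes were left out. A comparison nucleus held at least 3 of its class's 6 markers (4 for ciliated-like and endothelial) and at most 1 of those of each other comparison class. Named genes are markers, members of the lists, the 25 leading genes higher in all 4 comparisons, and 8 per direction against AT2-like and ciliated-like nuclei. Members and lists were chosen with earlier results of these data known. On simulated data edgeR recovered 28, 92, 100 and 100% of genes set to differ 2, 4, 8 and 16-fold between club and AT2-like nuclei, with 6 false calls among 166, and 12, 86, 92 and 98% between club and ciliated-like nuclei, with 3 among 147. Against AT1-like and endothelial nuclei it recovered 20 and 32% at 2-fold and 98% at 4-fold, with 10 false calls among 169 and 7 among 172. No doublet caller was run. Clusters used scanpy 1.11.5 (Leiden, resolution 0.5, 1000 variable genes, 15 components). Positions are from GENCODE. Results for some genes that met the rule are not reported here.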

Additional observations from a re-analysis of the deposited data

How the results depend on the processing

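The classes of 1 library were summed from the same material, so the library was kept as a block. With no replicate block the AT2-like comparison gave 956 calls in place of 1658, and 148 genes were higher in all 4 comparisons in place of 256; the cause was not tested. The calls against the other 3 classes, and the calls with DESeq2, with no filter on low counts, with a stricter Cyp2f2 threshold, with no ciliated gene allowed, without members carrying markers of another class and with low Cyp2f2 in the comparison nuclei, stayed within 1.5 times. Without the ciliated-like sum of replicate 1, a setting chosen after seeing the data, 218 genes were higher in all 4. The share of club nuclei was 9.44% with both Cyp2f2 thresholds lowered to 3 UMIs in proportion, and 1.10% with both raised to 12 UMIs. Leaving out a replicate left a share of 1.53% to 7.86%. The cell library gave 2 cells with the lowered thresholds and 32 cells by Scgb1a1. Over 476 results for single named genes and 4383 alternative values, 91 lost a call, 35 gained one and 0 reversed. Gene counts without a whole nucleus library were not run, since no residual degrees of freedom remain. Small sums limit the ciliated-like comparison most.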
